A study of Mus musculus with 12 samples.

Results

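The growth hormone axis was followed in mouse liver through 10 genes: Ghr, Igf1, Socs2, Bcl6, Hsd3b5, Cyp4a12a, Cyp4a12b, Slco1a1, Elovl3 and Serpina12. They were chosen by symbol, with earlier results of these data known. All 10 were found among the 24062 genes listed, and all 10 were among the 12015 that passed a filter on low counts. The livers came from male mice aged 14 weeks on a mixed 129SvEV-C57BL/6 background, and every animal carried floxed alleles of Nr5a2, the gene of the nuclear receptor LRH-1. Knockout animals had been given Cre recombinase in adulthood by AAV8, a viral vector that infects hepatocytes, and control animals carried the same floxed alleles without Cre and, according to the series, received AAV8-eGFP. Animals ate a high-fat diet (HFD, D12492; 2 knockout and 4 control libraries) or a standard diet (SD; 3 knockout and 3 control libraries) for 6 weeks. The promoter that drives Cre is not given in the sources used here, and cells that the vector did not reach keep the gene.

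Growth hormone from the pituitary binds GHR on hepatocytes, which activates the kinase JAK2 and through it the transcription factor STAT5. STAT5 switches on Igf1, the secreted factor that carries much of the growth signal, and Socs2, which damps the receptor. In the mouse, males secrete the hormone in pulses and females more evenly, and the pulses keep a set of male-biased liver genes on, among them Hsd3b5, Cyp4a12a, Cyp4a12b, Slco1a1 and Elovl3. BCL6 is a repressor that can occupy the DNA sites STAT5 uses.

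The HFD libraries held 7463792 to 10875478 counts and the SD libraries 2371167 to 3404570, so diet and depth cannot be told apart in level comparisons between diets. Levels are given as CPM, read counts scaled to the normalised library size. The threshold of edgeR's quasi-likelihood test was an adjusted p of 0.05, with the adjustment made over all genes tested. Nr5a2 was not lower in the libraries labelled knockout, at 95.3, 100.1 and 94.7 CPM in SD knockouts against 84.4, 74.8 and 85.8 CPM in SD controls, and at 69.1 and 84.5 CPM in HFD knockouts against 77.0, 74.5, 64.3 and 66.8 CPM in HFD controls, so the genotype groups rest on the labels. A summed count checks a deletion only if the deleted exons are counted, and the labels do not name those exons. On the first principal component (60% of variance) the SD libraries lay at -52.8 to -49 and the HFD libraries at 49.8 to 54. That split follows diet and depth together. On the second principal component (11.3% of variance) the SD knockouts lay at 21.7 to 28.8 and the SD controls at -29.7 to -22.6. On the same component HFD control 1 lay at 3.34, between the HFD knockouts (24.4 and 20.6) and the other HFD controls (-18.8 to -11.8). In HFD livers the summed level of 5 hepatocyte markers was 121968 to 168009 CPM in knockouts and 102453 to 107610 CPM in controls, and that of 4 adipocyte markers 36.8 to 69.2 CPM in knockouts and 0.343 to 3.09 CPM in controls, with Adipoq and Lep at 0 in every library and Cfd carrying the difference. In SD livers 7 stellate cell and fibroblast markers summed to 439 to 513 CPM in knockouts and 332 to 393 CPM in controls, and 6 cholangiocyte markers to 65.0 to 197 CPM in knockouts and 51.4 to 53.9 CPM in controls. The part of these shifts in the results below was not tested, and in whole liver fewer cells of a type cannot be told apart from less RNA per cell.

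The receptor gene Ghr stayed within a narrow range, and no test found a difference in it. Igf1 was lower on HFD than on SD in both genotypes, but the call in controls was lost in most alternatives, thinning to equal depth among them. Of the male-biased genes, Hsd3b5, Cyp4a12a, Cyp4a12b and Slco1a1 fell on HFD in controls and in knockouts, and Hsd3b5, Cyp4a12b and Slco1a1 were lower again in HFD knockouts than in HFD controls. Serpina12 rose in SD knockouts. Elovl3 passed in no comparison.

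In SD knockouts against SD controls, 1 of the 10 genes was higher and 0 lower, where 4.38% of all genes tested passed, 1.44% higher and 2.94% lower. In HFD knockouts against HFD controls, 0 were higher and 3 lower, where 2.7% of all genes passed, 1.04% higher and 1.66% lower. In HFD controls against SD controls, 5 were lower and 0 higher, where 30.1% of all genes passed, 16.5% higher and 13.6% lower. In HFD knockouts against SD knockouts, again 5 were lower and 0 higher, where 26.6% of all genes passed, 14.9% higher and 11.7% lower. The median log2 fold change of the 10 was -0.10, -0.01, -0.60 and -1.23 in these comparisons in turn, beside 0.00, -0.01, 0.02 and 0.03 over all genes tested. Comparisons that share a group of libraries are not independent of each other. Because the 10 genes were chosen with earlier results of these data known, their counts and medians are a description.

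Many genes did not overlap between groups of this size. Library values of 5 of the 10 genes did not overlap between SD knockouts and SD controls, where 22.6% of all genes did not. The count was 3 of 10 for HFD knockouts against HFD controls (22.2% of all genes), 5 of 10 for HFD controls against SD controls (37.2%) and 6 of 10 for HFD knockouts against SD knockouts (52.7%).

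**Figure D1:**
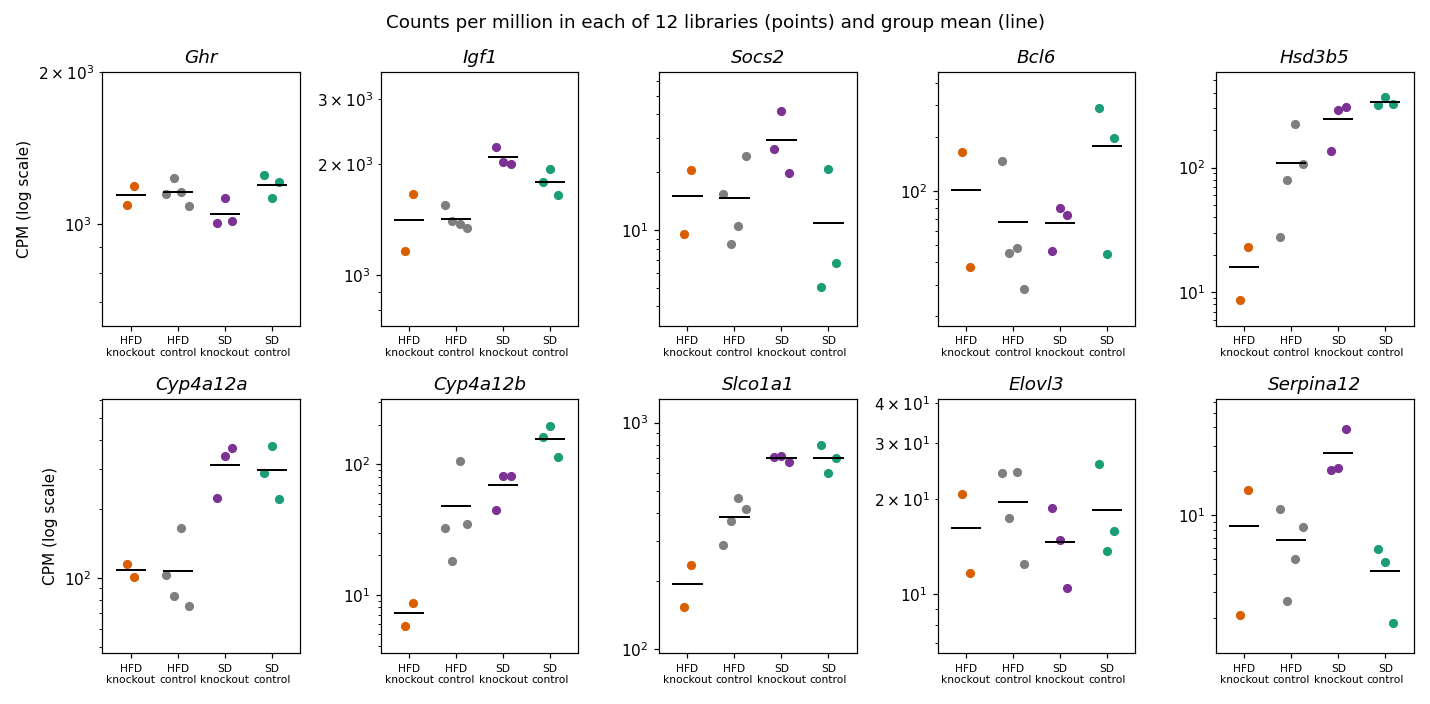
Level of each of the 10 genes in every library, in CPM on a log axis, with 1 point per library and a line at each group's mean. Hsd3b5, Cyp4a12a, Cyp4a12b and Slco1a1 sit lower in the HFD groups than in the SD groups, whereas the Ghr points lie between 1005 and 1251 CPM in all 12 libraries.

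Ghr, which encodes the growth hormone receptor, stood at 1005, 1123 and 1013 CPM in SD knockouts and at 1251, 1123 and 1209 CPM in SD controls. The groups touched at 1123 CPM without overlapping, and the log2 fold change was -0.19 (SE 0.10, 95% interval -0.41 to 0.03, edgeR adjusted p = 0.363). On HFD the levels were 1089 and 1189 CPM in HFD knockouts and at 1149, 1234, 1157 and 1086 CPM in HFD controls, where the groups overlapped (-0.02, 95% interval -0.25 to 0.21, adjusted p = 0.962). Within a group its coefficient of variation was 5.25% to 6.32%. Diet did not move it past the test either, at -0.05 (95% interval -0.25 to 0.16) in controls and 0.12 (-0.12 to 0.36) in knockouts.

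Igf1, the main endocrine product of the axis in liver, stood at 2218, 2019 and 1999.7 CPM in SD knockouts and at 1785, 1930 and 1649 CPM in SD controls. All 3 SD knockouts were above all 3 SD controls, but the difference of 0.22 did not pass (SE 0.13, 95% interval -0.06 to 0.49, edgeR adjusted p = 0.425). On HFD it stood at 1162 and 1655 CPM in knockouts and at 1544, 1394, 1374 and 1342 CPM in controls. The HFD knockouts lay on either side of the HFD controls, with a log2 fold change of 0.00 to 2 decimals (95% interval -0.30 to 0.29). Igf1 fell on HFD in controls, by 0.34 on the log2 scale (SE 0.12, adjusted p = 0.0446), and in knockouts, by 0.56 (SE 0.15, adjusted p = 0.0101). The call in controls was lost in 9 of 13 alternatives (edgeR adjusted p up to 0.172), thinning to equal depth among them. The call in knockouts was lost without HFD knockout 1, at -0.31.

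Socs2, the feedback inhibitor of the receptor, stood at 26.3, 41.6 and 19.9 CPM in SD knockouts and at 5.08, 20.9 and 6.71 CPM in SD controls. SD control 2 reached into the knockout range and the other 2 controls lay well below it. The log2 fold change was 1.45 (SE 0.51, 95% interval 0.37 to 2.53) and did not pass (edgeR adjusted p = 0.135), although it was 2.28 with an adjusted p of 0.0403 without SD control 2. It also passed with no filter on low counts (1.44, adjusted p = 0.0162) and with only the SD libraries in the fit (1.46, adjusted p = 0.0476). On HFD it stood at 9.59 and 20.5 CPM in knockouts and at 15.4, 8.44, 10.5 and 24.3 CPM in controls, and the groups overlapped (0.06, SE 0.44, adjusted p = 0.975). Between diets the change was 0.46 in controls (SE 0.48, adjusted p = 0.506) and -0.93 in knockouts (SE 0.49, adjusted p = 0.178).

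The related feedback gene Cish, described after its values were seen, varied in the same libraries. It stood at 16.7, 26.4 and 22.3 CPM in SD knockouts and at 0.781, 22.1 and 4.58 CPM in SD controls, so that SD control 2 was again the control with the highest value (1.29, SE 0.76, edgeR adjusted p = 0.417).

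Bcl6, the repressor, varied widely within groups, with a coefficient of variation of 27.2% to 88.8%. It stood at 46.0, 80.1 and 73.8 CPM in SD knockouts and at 289, 44.6 and 199 CPM in SD controls. SD control 2, which had the most Socs2 among the controls, had the least Bcl6 of the 6 SD libraries. The log2 fold change of -1.42 (SE 0.66, 95% interval -2.83 to -0.01) did not pass (edgeR adjusted p = 0.28). On HFD it stood at 164 and 37.6 CPM in knockouts and at 147, 44.9, 48.2 and 28.3 CPM in controls, with 1 high library in each group (0.57, SE 0.65, adjusted p = 0.781). Without HFD knockout 1 that value was -0.85. The diet comparison in controls gave -1.39 (SE 0.58, adjusted p = 0.085), and it passed without HFD control 1 (-2.13, adjusted p = 0.00918), without SD control 2 (-1.83, adjusted p = 0.0259) and with no filter on low counts (adjusted p = 0.0119). In knockouts it gave 0.60 (SE 0.71, adjusted p = 0.58).

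The promoter sequences of Bcl6 are shown because they hold the letters of the STAT motif TTCNNNGAA, which were searched in RefSeq promoter windows (GRCm38.p6, 250 bases before a start site to 50 after it, 300 in all, both strands). Of the 10 genes 6 are in that table, with 8 windows, and both windows of Bcl6 held a match while 0 of the other 6 windows did. Over all 32851 windows 8.3% held the motif, and 0.0335% held 3 or more matches, as 1 of the Bcl6 windows did. The first stretch below lies at chr16:23988943-23988992 and the second at chr16:23981344-23981463, both on the minus strand, printed 5′ to 3′ with the motif in capitals.
Bcl6, upstream start: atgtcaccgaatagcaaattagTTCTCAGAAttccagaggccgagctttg
Bcl6, downstream start: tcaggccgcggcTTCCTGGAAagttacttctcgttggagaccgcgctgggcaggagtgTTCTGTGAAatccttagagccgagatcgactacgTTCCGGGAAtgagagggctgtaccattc
A match is a description of these letters and not evidence of a bound site.

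Hsd3b5, a male-biased steroid dehydrogenase of mouse liver, had its lowest levels in HFD knockouts. It stood at 8.62 and 23.1 CPM in HFD knockouts and at 27.7, 80.1, 225 and 106 CPM in HFD controls. Both knockouts were below every control, and the lowest control, HFD control 1, was close to the higher knockout. The log2 fold change was -2.76 (SE 0.64, edgeR adjusted p = 0.0295), which is 6.80-fold lower, and -3.08 without HFD control 1 (adjusted p = 0.00163). The call was lost without HFD knockout 1 (-2.23, adjusted p = 0.328), without HFD knockout 2 (-3.66, adjusted p = 0.0687), without HFD control 4 (adjusted p = 0.0613), and with only the HFD libraries in the fit (adjusted p = 0.136).

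On SD, Hsd3b5 stood at 136, 288 and 307 CPM in knockouts and at 319, 366 and 325 CPM in controls. All SD knockouts were below all SD controls, with SD knockout 1 the furthest below, and the difference of -0.47 (SE 0.51) did not pass (edgeR adjusted p = 0.708). Between diets it fell in controls by 1.62 (SE 0.47, adjusted p = 0.0161) and in knockouts by 3.92 (SE 0.69, adjusted p = 0.000625), which is 15.1-fold lower in HFD knockouts. Both diet calls held in every alternative tried, 13 in controls and 11 in knockouts. The knockout effect on HFD minus that on SD was -2.29 (SE 0.79), which did not pass (adjusted p = 0.544).

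Slco1a1, an organic anion uptake transporter of the hepatocyte membrane, stood at 154 and 236 CPM in HFD knockouts and at 288, 370, 467 and 416 CPM in HFD controls. The knockouts lay below every control, and HFD control 1 was the control nearest to them. The log2 fold change was -0.98 (SE 0.19, edgeR adjusted p = 0.0124), a 1.98-fold lower level, and -1.09 without HFD control 1. The call was lost without HFD knockout 1 (-0.70, adjusted p = 0.228) and with only the HFD libraries in the fit (adjusted p = 0.0733).

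In SD livers Slco1a1 showed no such separation. It stood at 707, 712 and 669.8 CPM in SD knockouts and at 794, 600.5 and 701 CPM in SD controls (0.00 to 2 decimals, SE 0.18, 95% interval -0.38 to 0.37). It fell on HFD in controls by 0.86 (SE 0.16, edgeR adjusted p = 0.00088) and in knockouts by 1.84 (SE 0.21, adjusted p = 8.98e-06), and both calls held in every alternative tried. The knockout effect on HFD minus that on SD was -0.98 (SE 0.26, unadjusted p = 0.00178) and did not pass in edgeR (adjusted p = 0.374), while DESeq2 gave an adjusted p of 0.0488. Of all genes tested, 0 passed this difference in edgeR, 33 passed it in DESeq2 and 911 had an unadjusted edgeR p under 0.05.

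The promoter of Slco1a1 is shown because it was the only 1 of the 8 windows with the short LRH-1 motif AAGGTCA, which 4.72% of all windows hold on either strand. The stretch lies at chr6:141946963-141947012 on the minus strand (GRCm38.p6), with the motif in capitals.
Slco1a1: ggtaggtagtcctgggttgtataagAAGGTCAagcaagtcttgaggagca
The longer form CAAGGTCA, found in 1.56% of all windows, was not in these 8. The STAT motif with a 4-base spacer, TTCNNNNGAA, was in the windows of Hsd3b5 and Serpina12 and in 6.95% of all windows.

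**Figure D2:**
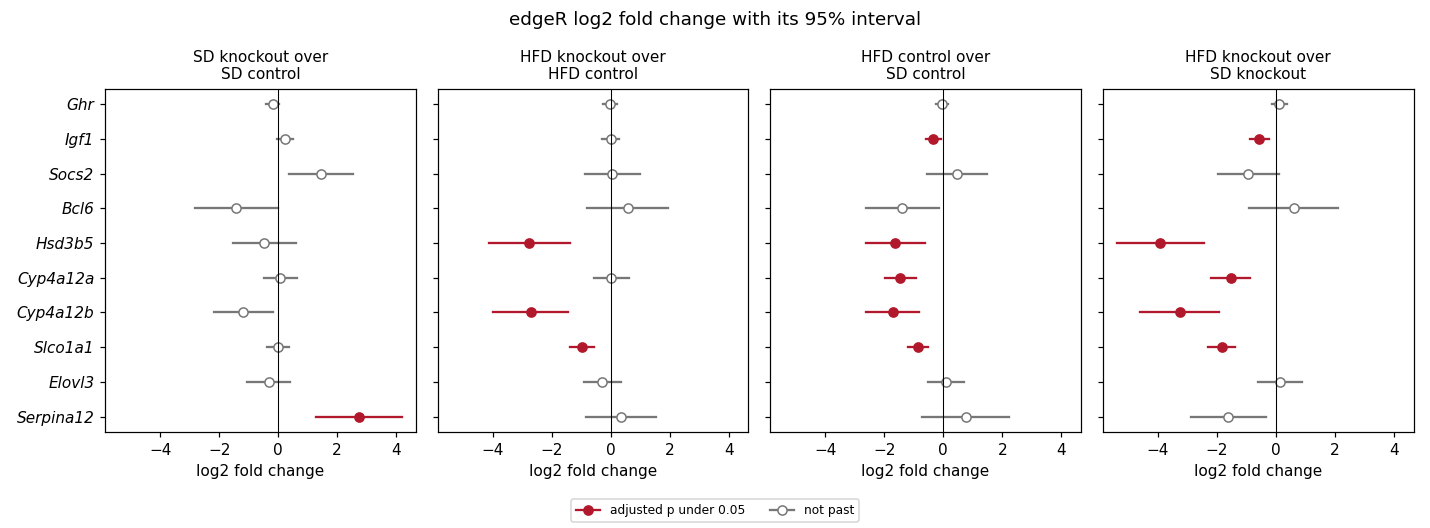
edgeR log2 fold change of the 10 genes in 4 comparisons, with the 95% interval as a bar and filled red points where the adjusted p was under 0.05. On HFD the knockout changes of Hsd3b5 (-2.76) and Cyp4a12b (-2.71) were past the threshold, and the interval of Cyp4a12a (0.01) crosses 0.

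Cyp4a12a and Cyp4a12b are neighbouring genes of male-biased cytochromes that hydroxylate fatty acids and arachidonic acid. Cyp4a12b stood at 45.0, 82.1 and 82.2 CPM in SD knockouts and at 161, 199 and 115 CPM in SD controls, and all knockouts were below all controls. The difference of -1.18 (SE 0.47) did not pass (edgeR adjusted p = 0.192), but it passed with only the SD libraries in the fit (adjusted p = 0.00743) and with no filter on low counts (adjusted p = 0.0246). On HFD the levels were 5.70 and 8.70 CPM in knockouts and at 32.5, 18.2, 106 and 34.7 CPM in controls, again without overlap. There it fell by 2.71 (SE 0.60, adjusted p = 0.0216), 6.55-fold, and by 2.86 without HFD control 1. This call was lost without HFD knockout 1 (adjusted p = 0.264), without HFD knockout 2 (adjusted p = 0.101) and with only the HFD libraries (adjusted p = 0.107).

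Cyp4a12a did not pass between genotypes in either diet. It stood at 223, 341 and 371 CPM in SD knockouts and at 289, 379 and 221 CPM in SD controls (0.08, SE 0.27, 95% interval -0.49 to 0.64). It stood at 115 and 101 CPM in HFD knockouts and at 103, 83.3, 166 and 75.1 CPM in HFD controls (0.01, SE 0.28, 95% interval -0.58 to 0.61). The groups overlapped in both diets.

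Both cytochrome genes were lower on HFD than on SD. Cyp4a12a fell on HFD by 1.47 in controls (SE 0.25, edgeR adjusted p = 0.000336) and by 1.53 in knockouts (SE 0.31, adjusted p = 0.00193). Cyp4a12b fell by 1.72 in controls (SE 0.42, adjusted p = 0.00536) and by 3.25 in knockouts (SE 0.63, adjusted p = 0.00132). Each of these 4 calls held in every alternative tried.

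The share of Cyp4a12a in the counts of both genes, a measure chosen after their values were seen, did not overlap between genotypes in either diet. It was 83.2%, 80.6% and 81.9% in SD knockouts and 64.2%, 65.6% and 65.8% in SD controls. It was 95.3% and 92.1% in HFD knockouts and 76.1%, 82.0%, 61.2% and 68.4% in HFD controls. The difference was 16.7 percentage points on SD and 21.8 points on HFD, given as a description with no test because the measure was chosen for this separation.

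**Figure D3:**
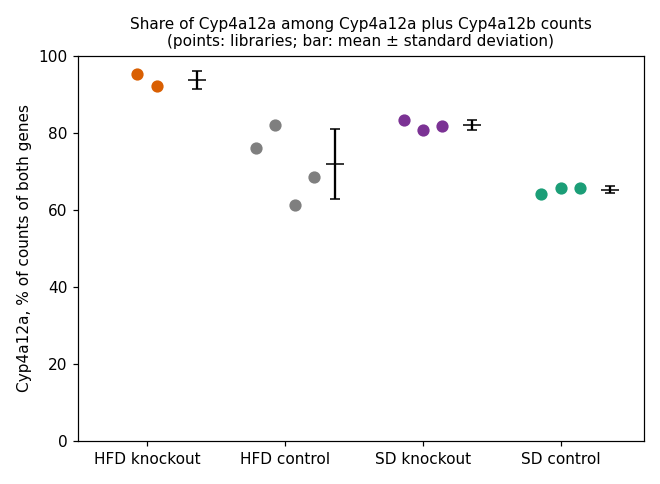
Share of Cyp4a12a in the summed counts of Cyp4a12a and Cyp4a12b, in percent, with 1 point per library and a bar beside the points for each group's mean ± standard deviation. Every knockout point is above every control point of the same diet, with means of 93.7% in HFD knockouts, 71.9% in HFD controls, 81.9% in SD knockouts and 65.2% in SD controls.

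The pair is nearly identical in sequence, which limits what counts per gene can separate. The GENCODE transcripts (GRCm38), of 2422 bases for Cyp4a12a and 2395 for Cyp4a12b, were 98.4% identical when aligned, and their coding sequences differed at 20 aligned positions. Of all 50-base words, 48.9% of those in Cyp4a12a and 49.4% of those in Cyp4a12b also occur in the other. How reads that fit both genes were counted was not stated by the submitters, so the levels of both, and their share, are uncertain. The stretches below are the 60 coding bases in which the genes differ most, at chr4:115326702-115326761 for Cyp4a12a and chr4:115432955-115433014 for Cyp4a12b (plus strand), with the 4 differing bases in capitals.
Cyp4a12a: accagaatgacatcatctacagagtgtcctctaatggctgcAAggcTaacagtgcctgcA
Cyp4a12b: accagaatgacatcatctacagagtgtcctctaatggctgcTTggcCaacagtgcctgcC
Hsd3b5 also has a close relative, Hsd3b4 (92.7% identical over the aligned stretch), which held 1 count over all 12 libraries, and Slco1a1 has Slco1a5 (91.0%), which held 0. Socs2 aligned to the predicted gene Gm9847 at 99.6% identity over 452 bases and to Gm8000 at 95.6%. Hsd3b5 also aligned to Gm10681 and Gm4450, each at 92.7%. Counts of these Gm genes were not examined, so their part in the levels of Hsd3b5 and Socs2 was not tested.

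Elovl3, a fatty acid elongase with male-biased expression in mouse liver, showed no difference past the test. It stood at 18.7, 14.8 and 10.4 CPM in SD knockouts and at 25.8, 13.7 and 15.9 CPM in SD controls. It stood at 20.7 and 11.7 CPM in HFD knockouts and at 24.0, 17.4, 24.4 and 12.5 CPM in HFD controls. The groups overlapped in all 4 comparisons, and the log2 fold changes lay between -0.32 and 0.13 with edgeR adjusted p-values of 0.701 to 0.832.

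Serpina12, which encodes the secreted serpin vaspin, stood at 20.3, 21.2 and 39.0 CPM in SD knockouts and at 5.86, 4.82 and 1.83 CPM in SD controls, from 226 counts in the knockouts and 33 in the controls. All SD knockouts were above all SD controls, and the log2 fold change was 2.74 (SE 0.68, edgeR adjusted p = 0.0316). Leaving out any 1 SD library other than SD knockout 1 ended this call, with log2 fold changes of 2.33 to 3.09 and adjusted p-values of 0.057 to 0.163. On HFD it stood at 2.08 and 14.95 CPM in knockouts and at 11.0, 2.61, 5.04 and 8.32 CPM in controls, and the groups overlapped (0.36, SE 0.56, adjusted p = 0.853). The HFD knockouts were both below the SD knockouts, at -1.62 (SE 0.60), which did not pass (adjusted p = 0.0586). That difference passed with no filter on low counts (-1.58, adjusted p = 0.00823), with thinning to equal depth (-1.85, adjusted p = 0.0155) and without HFD knockout 2 (-3.67, adjusted p = 0.00303), and it was -0.83 without HFD knockout 1 (adjusted p = 0.327). Between diets in controls the change was 0.77 (SE 0.69, adjusted p = 0.441). The knockout effect on HFD minus that on SD was -2.38 (SE 0.90) and did not pass either (adjusted p = 0.568). For the genes not yet given, this difference was 0.17 for Ghr, -0.22 for Igf1, -1.39 for Socs2, 1.99 for Bcl6, -0.06 for Cyp4a12a, -1.53 for Cyp4a12b and 0.03 for Elovl3, with edgeR adjusted p-values of 0.647 or more.

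The other genes of receptor signalling mostly did not pass between genotypes. Of 19 listed, 17 were tested, and 1 rose and 1 fell in SD knockouts against SD controls, where 4.38% of all genes tested passed. In HFD knockouts against HFD controls 0 passed, where 2.7% of all genes did. The prolactin receptor gene Prlr, a relative of Ghr whose product also activates STAT5, fell in SD knockouts, at 103 ± 67.1 CPM against 379 ± 35.4 CPM in SD controls (mean ± standard deviation, n = 3 each, as for the values that follow; -1.88, SE 0.34, edgeR adjusted p = 0.00523), and this call held in all 12 alternatives. The adaptor gene Grb10, an inhibitor of insulin and IGF receptor signalling, rose in SD knockouts, at 12.4 ± 3.86 CPM against 4.69 ± 1.18 CPM in SD controls (1.42, SE 0.31, adjusted p = 0.0156), and its call was lost on leaving out any one of SD knockout 2, SD knockout 3 and SD control 3 (adjusted p up to 0.102).

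The kinase and transcription factor genes downstream of the receptor did not pass between genotypes. Jak2 averaged 31.4 ± 5.62 CPM in SD knockouts and 39.1 ± 9.74 CPM in SD controls (edgeR adjusted p = 0.396). Stat5b averaged 27.8 ± 4.26 CPM in SD knockouts and 32.1 ± 3.43 CPM in SD controls (adjusted p = 0.643), and on HFD 28.3 ± 7.88 CPM in knockouts (n = 2) and 28.1 ± 3.92 CPM in controls (n = 4). Stat5a rose on HFD in controls (0.71, SE 0.22, adjusted p = 0.0208) and in knockouts (1.25, SE 0.26, adjusted p = 0.00201). The call in controls was lost in DESeq2 and without SD control 2 or SD control 3 (adjusted p up to 0.113).

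On the same list, 2 genes of phosphatases, which remove phosphate from activated signalling proteins, differed between diets. Ptpn6 rose on HFD in controls (1.22, SE 0.30, edgeR adjusted p = 0.00524) and in knockouts (1.27, SE 0.32, adjusted p = 0.00851). Ptpn2 fell on HFD in controls (-0.69, SE 0.12, adjusted p = 0.000567). In all, 2 of the 17 rose and 1 fell in HFD controls against SD controls, where 30.1% of all genes tested passed. In HFD knockouts against SD knockouts 3 rose and 1 fell, where 26.6% of all genes passed.

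Of 11 genes for IGF1 carriers and secreted proteins, 10 were tested. Igfals, the subunit that holds circulating IGF1 in its large complex, averaged 59.7 ± 1.77 CPM in SD knockouts and 52.0 ± 13.5 CPM in SD controls (n = 3 each, edgeR adjusted p = 0.65). Igfbp5, an IGF-binding protein, was higher in knockouts in both diets, at 26.5 ± 4.71 CPM in SD knockouts against 8.54 ± 1.48 CPM in SD controls (1.63, SE 0.37, adjusted p = 0.0189) and at 69.2 ± 14.96 CPM in HFD knockouts (n = 2) against 25.8 ± 12.05 CPM in HFD controls (n = 4; 1.41, SE 0.27, adjusted p = 0.00913). Igfbp1, another carrier, fell in SD knockouts, at 20.7 ± 17.3 CPM against 86.5 ± 32.0 CPM in SD controls (-2.04, SE 0.45, adjusted p = 0.0171). The SD calls of Igfbp5 and Igfbp1 were each lost without SD knockout 2 or SD control 3 and without 1 or 2 further SD libraries (adjusted p up to 0.0976 and 0.101), and the HFD call of Igfbp5 without HFD knockout 2 and with only the HFD libraries (adjusted p up to 0.1). Egfr, the receptor gene of epidermal growth factor, fell on HFD in controls (-1.54, SE 0.28, adjusted p = 0.00071), in all 13 alternatives.

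Other male-biased genes moved in both directions between genotypes. Of 19 listed, 18 were found and tested. In SD knockouts 2 rose and 2 fell, where 1.44% of all genes tested rose and 2.94% fell. In HFD knockouts against HFD controls 0 rose and 3 fell, where 1.04% of all genes rose and 1.66% fell. The urinary protein gene Mup3 was lower in knockouts in both diets, at 2959.9 ± 366 CPM in SD knockouts against 6279.7 ± 236 CPM in SD controls (-1.09, SE 0.21, edgeR adjusted p = 0.00908) and at 1721 ± 627 CPM in HFD knockouts against 5846 ± 1456 CPM in HFD controls (-1.76, SE 0.25, adjusted p = 0.00104). Its family member Mup20, a male pheromone, rose in SD knockouts (1.91, SE 0.41, adjusted p = 0.0154). The Mup genes are a large family. Close copies of Mup3 and Mup20 were not searched for, so how far reads of other family members enter their counts was not tested. The Mup3 call on SD was lost without SD knockout 2 (adjusted p = 0.0556), and that of Mup20 without SD knockout 3 or SD control 3 (adjusted p up to 0.098).

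The male-biased list was mostly lower on HFD among knockouts. There 2 rose and 11 fell of 18, where 14.9% of all genes tested rose and 11.7% fell. In HFD controls against SD controls 2 rose and 4 fell, where 16.5% of all genes rose and 13.6% fell. The list's median log2 fold change was -1.14 in knockouts and -0.29 in controls. The count of 11 was 4 without HFD knockout 1 and 5 without SD knockout 3. Cyp7b1, an oxysterol hydroxylase, averaged 70.2 ± 41.7 CPM in HFD knockouts and 449 ± 202 CPM in SD knockouts (-2.67, SE 0.48, edgeR adjusted p = 0.000758). Ugt2b1, a glucuronosyltransferase, averaged 365 ± 52.1 CPM in HFD knockouts and 912 ± 199.6 CPM in SD knockouts (-1.32, SE 0.20, adjusted p = 0.000174). Rdh9, a retinol dehydrogenase family gene, rose by 1.69 in HFD knockouts over SD knockouts (SE 0.20, adjusted p = 1.47e-05).

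Female-biased genes were tested for 18 of 28 listed, since the other 10 had too few counts. In SD knockouts 0 rose and 2 fell, where 1.44% of all genes tested rose and 2.94% fell. The 2 were Prlr, which is on this list too, and Atp6v0d2, a subunit of the vacuolar proton pump. Atp6v0d2 averaged 0.133 ± 0.231 CPM in SD knockouts, with 1 count in 1 library, and 7.72 ± 3.31 CPM in SD controls (edgeR adjusted p = 0.00256). It also fell in HFD knockouts, at 1.33 ± 1.26 CPM against 11.5 ± 3.38 CPM in HFD controls (-3.16, SE 0.49, adjusted p = 0.00212), and both calls held in all 12 alternatives. In HFD knockouts 3 genes of the list rose and 1 fell, where 1.04% of all genes tested rose and 1.66% fell. Among those that rose, Slc22a26, an organic anion transporter family gene, stood at 30.3 ± 18.9 CPM against 4.95 ± 1.35 CPM in HFD controls (2.60, SE 0.34, adjusted p = 0.000722). Its call held in all 12 alternatives, whereas those of Slc22a27 and Cyp2a4 were lost in 9 and 7 of 12, and Cyp2a4 turned to -0.61 without HFD knockout 1.

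Between diets the female-biased genes that passed were all higher on HFD. In HFD controls against SD controls 6 of 18 rose and 0 fell, where 16.5% of all genes tested rose and 13.6% fell. In HFD knockouts against SD knockouts 7 rose and 0 fell, where 14.9% of all genes rose and 11.7% fell. The list medians were 1.46 in controls and 1.94 in knockouts. Slc22a26, Slc22a27 and Cyp2b13 reached at most 1.33, 1.22 and 0.801 CPM in any SD library. They passed the low-count filter through HFD libraries, where they were high. The counts and medians of this list are therefore partly no independent measure of a rise on HFD. Cyp2b9, a cytochrome of the female-biased Cyp2b group, averaged 503 ± 125 CPM in HFD knockouts and 138 ± 103 CPM in HFD controls, which did not pass (1.87, SE 0.84, edgeR adjusted p = 0.327). It rose in HFD controls over SD controls, which averaged 7.57 ± 5.32 CPM (4.20, SE 1.13, adjusted p = 0.0103). The HFD controls stood at 211, 224, 2.29 and 113 CPM, so that HFD control 3 lay below all 3 SD controls (2.73, 13.3 and 6.71 CPM). The call held in all 13 alternatives, at 3.70 to 4.81. Close copies of the female-biased genes were not searched for either, so how far reads of related genes enter their counts was not tested. Leaving out 1 library moved the count of 7 to between 4 and 10.

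**Figure D4:**
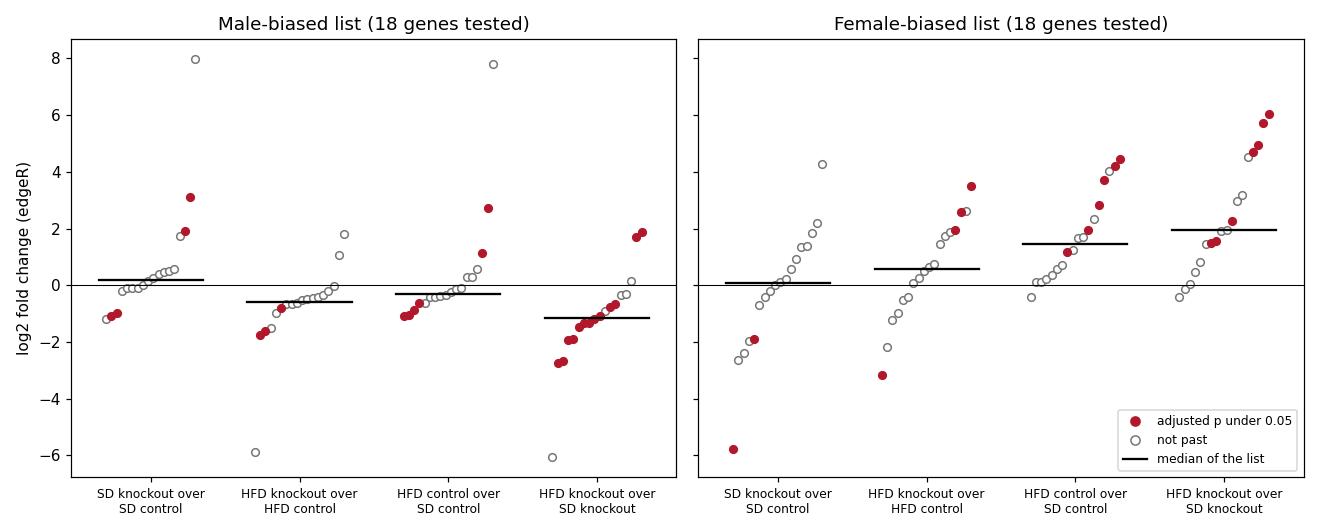
edgeR log2 fold change of each tested male-biased (18) and female-biased (18) gene in 4 comparisons, with 1 point per gene, filled where the adjusted p was under 0.05, and a bar at the list's median. The medians on HFD knockouts over SD knockouts are -1.14 for the male-biased list and 1.94 for the female-biased list, and single genes of both lists lie on either side of 0.

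Among the transcription factor genes tied to sex-biased expression, a fall was found in SD knockouts. Ppara, the fatty acid sensing nuclear receptor gene, fell to 397 ± 42.4 CPM in SD knockouts, against 573 ± 76.7 CPM in SD controls (-0.53, SE 0.13, edgeR adjusted p = 0.0257), and this call ended when SD knockout 2, SD knockout 3, SD control 1 or SD control 3 was omitted (adjusted p up to 0.132).

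No pair of the 10 genes was found to vary together within groups after adjustment. Over the 12 libraries, with each group's mean subtracted, 45 pairs were compared and 0 passed after Benjamini-Hochberg adjustment. The pair with the highest r was Cyp4a12a with Cyp4a12b (Pearson's r = 0.83, exact permutation p = 0.0168, adjusted p = 0.755; Spearman's rho = 0.74, exact permutation p = 0.0272, adjusted p = 0.612), at 0.98 within SD and 0.80 within HFD libraries and 0.65 without the 2 libraries farthest from the median. These genes share much of their sequence, as described above, and how reads that fit both were counted is not known. The part of such reads in this r was not tested. Hsd3b5 with Slco1a1 gave r = 0.78 (exact permutation p = 0.0504, adjusted p = 0.972; rho = 0.62, exact permutation p = 0.121, adjusted p = 0.896), but 0.96 within HFD and -0.26 within SD libraries, and 0.54 without the 2 farthest. Socs2 with Bcl6 gave r = -0.64 (exact permutation p = 0.125, adjusted p = 0.972; rho = -0.56, exact permutation p = 0.153, adjusted p = 0.896) and -0.30 without the 2 farthest, one of which was SD control 2.

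The genes most like each of the 10 by the same group-centred measure were taken from all tested genes of at least 5 CPM, as a description over 12 libraries that differ in depth and diet. For Hsd3b5 they were Epb4.1l4b (Pearson's r = 0.95), Serpina3k (0.95) and Apof (0.94), and for Slco1a1 they were Lgr4 (0.96), Ndufv2 (0.95) and Fbxo9 (0.94). For Cyp4a12b they were Hist2h2be (0.93) and C6 (0.91), and for Bcl6 Spata22 (0.94), Acaca (0.91) and Flt4 (0.90). With so many genes to choose from, values of this size are a ranking and no finding.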

How the data were processed

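Total RNA of frozen liver was isolated in Trizol and made into libraries with the Nugen Ovation RNA-Seq System V2, per the labels' protocols. TopHat2 2.1.0, HTSeq, DESeq2 1.14.1 and mm9 were used, per the submitters' processing notes. Neither the strand setting nor the handling of multi-mapping reads is stated there. The authors deposited raw whole-number counts per gene symbol, with no line for unassigned reads.

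The counts were tested with edgeR 4.0.16 (R 4.3.3, limma 3.58.1; quasi-likelihood test, TMM normalization, filterByExpr with a minimum count of 10, 4 group means over all 12 libraries, two-sided, Benjamini-Hochberg adjustment over 12015 genes; common biological coefficient of variation 0.153). Values are mean ± standard deviation in CPM of the normalized library sizes. Errors cover the spread between libraries, which the labels do not state to be separate animals. Alternatives were DESeq2 1.42.0, RLE normalization, no low-count filter, only the groups compared, thinning to 2371167 counts, the replicate number as a block, and each library left out. Leaving out 1 HFD knockout leaves a lone library, assumed to vary like the other groups. The procedure was also run on simulated counts in which a gene had the same spread in every group, and the outcome is not reported here.

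The members and lists were chosen with earlier results of these data known. All 10 members are named in every comparison, and of each list up to 4 genes with the smallest p per comparison were eligible; of those, the ones described were chosen after their values were seen, and Jak2, Stat5b, Igfals, Cish, Slc22a27 and Cyp2a4 were taken for their role or their stability. Transcripts are from GENCODE (GRCm38) and promoters from RefSeq (GRCm38.p6). No coordinates were converted between builds. Some results on list genes and likeness are not reported here.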

Additional observations from a re-analysis of the deposited data

Results flagged for a closer look

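Bcl6 stood at 147.1 CPM in HFD control 1, against 28.3 to 48.2 CPM in the other 3 HFD controls. Its gap to the nearest library was 0.833 of the group's range, just above Dixon's critical value of 0.829 for 4 samples. The HFD control group was the only group of 4, it was examined for 13 quantities, and chance alone flags about 1 in 20. HFD control 1 also lay apart from the other HFD controls on the second principal component.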

How the results depend on the processing

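The replicate numbers did not pair the libraries: same-numbered libraries correlated at -0.0601 to 0.171 (15 pairs) and others at -0.175 to 0.197. With the replicate number as a block, 595 genes passed between genotypes on SD, 227 on HFD, 3347 between diets in controls and 2927 in knockouts, and 1 for the difference of the knockout effects, and Socs2 then passed in SD knockouts (adjusted p = 0.0435) and in HFD knockouts against SD knockouts (-1.14, adjusted p = 0.0422). That difference had 0 calls in edgeR, 33 in DESeq2 and 17 with no filter on low counts. On HFD 325 genes passed between genotypes, 518 with no filter and 127 with only those groups in the fit. Leaving out 1 library gave 220 to 498 genes between genotypes on SD (526 with all), 85 to 602 on HFD, 2831 to 3304 between diets in controls (3622 with all), 1978 to 2733 in knockouts (3196 with all) and 0 to 4 for the difference.

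Some values near 0 that did not pass changed sign. Slco1a1 on SD was 0.0098 with only those groups and 0.023 with thinning, and -0.10 to 0.10 with 1 library left out. On HFD between genotypes Serpina12 was -0.042 with thinning and Cyp4a12a -0.0066 with the block. The difference of knockout effects for Elovl3 was -0.19 with the block. With 1 library left out, between genotypes on HFD Ghr ranged from -0.082 to 0.048, Igf1 from -0.28 to 0.23, Socs2 from -0.60 to 0.50, Bcl6 from -0.85 to 1.32, Cyp4a12a from -0.12 to 0.32, Elovl3 from -0.74 to 0.077, Serpina12 from -1.70 to 1.13 and Cyp2a4, which passed with all libraries, from -0.61 to 4.50. On SD Cyp4a12a ranged from -0.10 to 0.29. Between diets in controls Ghr ranged from -0.081 to 0.00052 and Elovl3 from -0.053 to 0.42, and in knockouts Elovl3 from -0.31 to 0.50 and Bcl6 from -0.80 to 1.31. The difference of knockout effects ranged from -0.27 to 0.24 for Cyp4a12a, -0.42 to 0.40 for Elovl3 and -0.50 to 0.018 for Igf1. The causes were not tested. With 2 HFD knockouts, each of the 3 falls on HFD lost its call without HFD knockout 1.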
